A study of Mus musculus with 4 samples.

Results

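The MYC, MAX and MXD network was described here in CD8+ T cells taken from B16-GP33 tumours of mice, through 9 genes: Myc, Max, the antagonist genes Mxd1, Mxd3, Mxd4, Mxi1 and Mnt, and Mlx and Mga. The genes were chosen by symbol, as 9 of the 24537 rows of the deposited expression table, and each symbol matched a single row. The set was put together with the difference between ACSS2NLS and EV already known, Mxd1 included. That contrast is therefore given for the members as levels, differences and errors, with no p-value, and the number of members that pass the fit over all genes is a count from which nothing is read.

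Every library came from CD8+ cells of B16-GP33 tumours at day 21 after the tumours were implanted. The tumour line derives from mouse melanoma (B16), and GP33 is an epitope of a virus that CD8+ T cells recognise. The ACSS2NLS group comprised 2 libraries and the EV group 2. ACSS2 makes acetyl-CoA from acetate. The labels spell out neither NLS, which commonly stands for nuclear localisation signal, nor EV, which commonly stands for empty vector. No group carried added ACSS2 without the signal, so the amount of the enzyme and its place in the cell cannot be told apart. The sources used here do not give the strain or age of the mice, the way the gene was introduced, or whether each library came from a separate mouse. The spread between libraries may therefore be technical.

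MYC is a transcription factor of the basic helix-loop-helix leucine zipper class, and it binds DNA as a heterodimer with MAX at the E-box. MAX also pairs with the MXD proteins, MNT and MGA, which repress transcription at the same sites, and the MXD proteins and MNT do so by recruiting the SIN3 corepressor. MLX is the partner of MondoA and ChREBP, the glucose-responsive branch of the network, and can also bind MXD1, MXD4 and MNT. In T cells, MYC is induced by antigen receptor and cytokine signals and drives growth, nutrient uptake and ribosome production, while MXD1 accompanies differentiation and exit from the cell cycle.

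The E-box letters that the network binds occur in the promoters of several of its own genes. The RefSeq promoter table (GRCm38.p6, 250 bases before to 50 after the start of a gene) held 10 entries for 8 of the 9 genes, Myc being the exception. The canonical E-box CACGTG, which reads the same on both strands, was found in the promoters of 4 of these 8 genes, against 12.3% of the 7496 measured genes with a promoter entry, measured meaning that the 4 libraries averaged 1 FPKM or more, and 8.09% of all 27025 genes with an entry. FPKM is the number of tags on the exons of a gene, scaled to its exon length and to the tags of the library. The 4 sites are printed below, 30 bases each and 5′ to 3′ on the strand of the gene, because they are where these genes share the sequence that the network reads. Capitals mark CACGTG.
Max (chr12:76962234-76962263, minus strand): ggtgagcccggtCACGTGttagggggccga
Mxd4 (chr5:34187912-34187941, minus strand): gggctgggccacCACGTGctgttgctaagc
Mnt (chr11:74830789-74830818, plus strand): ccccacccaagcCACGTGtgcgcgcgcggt
Mlx (chr11:101087238-101087267, plus strand): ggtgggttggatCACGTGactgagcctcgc
The motif began 3 bases before the start of Max, 40 before that of Mlx, 123 before that of Mnt and 219 before that of Mxd4.

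No CACGTG was found in the promoter windows of Mxd1, Mxd3 and Mga or in any of the 3 windows of Mxi1. None of the 3 Mxi1 windows covers chr19:53330446, where the transcript whose level is given here starts. The window of Mxd1, the network gene with the largest difference, held CCAAT, the letters of the NF-Y box, 4 times and GGGCGG, the letters of the GC box, 6 times, counting both strands. At least 1 CCAAT was present in 43.2% and at least 1 GGGCGG in 69.8% of the measured genes with an entry, and in 41.1% and 38.2% of all genes with an entry. Of the 6 GGGCGG matches, 2 overlap each other and none overlaps a CCAAT. The 250 bases before the start of Mxd1 (chr6:86669160-86669409, minus strand, GRCm38.p6) are printed with CCAAT in capitals. These motifs were picked after the sequences were seen, and a match is a description of letters and not of binding.
Mxd1: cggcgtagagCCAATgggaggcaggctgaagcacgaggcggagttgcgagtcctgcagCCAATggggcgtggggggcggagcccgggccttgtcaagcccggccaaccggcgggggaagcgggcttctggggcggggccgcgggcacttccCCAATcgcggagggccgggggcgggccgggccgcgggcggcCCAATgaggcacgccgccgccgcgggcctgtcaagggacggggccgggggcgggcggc

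Library size ranged between 46000000 and 49300000 tags when rounded to 100000, and exons took 39.6% to 41.9%. Acss2 was at 80.7 and 86.3 FPKM in the ACSS2NLS libraries and 3.66 and 3.92 FPKM in the EV libraries, and was thus higher in both libraries labelled ACSS2NLS. The 8 listed CD8+ T cell markers, Cd8a, Cd8b1 and Cd3e among them, summed to 2097 and 1636 FPKM in ACSS2NLS and 2260 and 1866 FPKM in EV, with none at 0. Transcripts of other cells were present. The 12 melanoma markers summed to 15.3 and 185.6 FPKM in replicates 1 and 2 of ACSS2NLS and 8.73 and 49.2 FPKM in those of EV, with none at 0. The 20 myeloid markers summed to 372.2 and 1288 FPKM in ACSS2NLS and 162.1 and 850.7 FPKM in EV, and S100a9 and Cxcr2 were listed at 0 in ACSS2NLS replicate 1. The mean was higher in ACSS2NLS for 12 of the 16 measured myeloid markers and lower for 4, and Lyz2, Cd74, Apoe and the C1q genes made up most of the sum. Summed levels over the libraries were 52.0 to 192.2 FPKM for CD4 and regulatory T cell markers and 6.79 to 11.4 FPKM for NK markers. Ctla4 and Il2ra made up most of the first sum, whereas Cd4 was at most 2.40 FPKM and Foxp3 at most 3.89 FPKM in any library. Eomes, at 4.23 to 9.34 FPKM, made up most of the NK sum. The B cell markers summed to 1.58 to 3.15 FPKM, and Pax5 among them was listed at 0 in ACSS2NLS replicate 1 and both EV libraries.

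All 9 network genes were measured, with between 187 tags (Mnt in EV replicate 1) and 7659 tags (Myc in ACSS2NLS replicate 1) in a library. Counting error was at most 7.31%, for Mnt, and 2.59% for Mxd1. By mean FPKM, Myc was the most abundant at 56.6, above 93.8% of the 9810 measured genes. It was followed by Max at 18.4, Mlx at 16.6, Mxd1 at 10.8, Mxd3 at 8.71, Mxi1 at 6.12, Mxd4 at 5.10, Mga at 1.40 and Mnt at 1.17 FPKM. Myc stood above Max in all 4 libraries with ranges that did not touch, and so did Mxd3 above Mxi1 and Mxd4 above Mga. The ranges of Max and Mlx, Mlx and Mxd1, Mxd1 and Mxd3, Mxi1 and Mxd4, and Mga and Mnt overlapped, although Mga was above Mnt within every library. Mxd1 was above Mxd3 in the 2 EV libraries and below it in the 2 ACSS2NLS libraries.

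**Figure D1:**
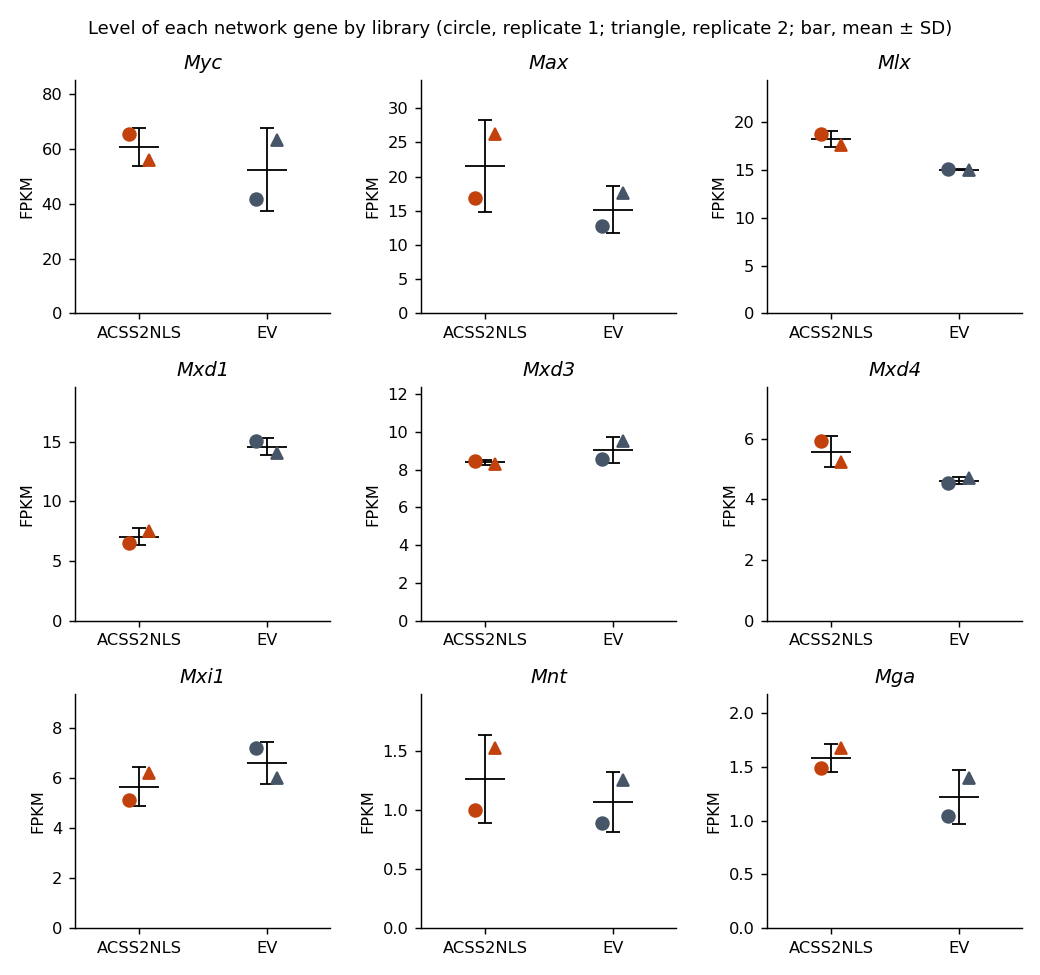
FPKM of each network gene in the 4 libraries, with ACSS2NLS in orange and EV in grey, replicate 1 as a circle and replicate 2 as a triangle, and the mean ± SD as a bar. Mxd1 is at 6.55 and 7.54 FPKM in ACSS2NLS and 15.1 and 14.1 FPKM in EV, while the points of Myc, Max, Mxi1 and Mnt overlap between the groups.

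Mxd1, an antagonist that takes MAX away from MYC and brings SIN3 to the E-box, was lower in ACSS2NLS cells. Mxd1 (NM_010751; mm10 chr6:86647045-86669159, minus strand) was at 6.55 and 7.54 FPKM in the ACSS2NLS libraries, against 15.1 and 14.1 FPKM in the EV libraries. Both ACSS2NLS libraries lay below both EV libraries, and the gap between the groups was wider than that between replicates. Its mean was 7.04 ± 0.696 FPKM in ACSS2NLS and 14.6 ± 0.714 FPKM in EV (SD, n = 2 each), a ratio of 0.483, and its difference on the log2(FPKM + 1) scale, ACSS2NLS minus EV, was -0.96 ± 0.13 (SE). Of the 9810 measured genes, 47 had a more negative difference, or 0.479%. Leaving out a library at a time kept the difference between -1.04 and -0.87. Since both ACSS2NLS libraries lay below both EV libraries, its sign could not turn there. The rank and the range describe values that were known when the gene was chosen, and are not read as support. In bulk RNA, fewer cells that express Mxd1 and less Mxd1 RNA per cell cannot be told apart. Some myeloid markers separated the groups in the direction of Mxd1, although the myeloid sum did not. S100a8 and S100a9, calgranulin genes abundant in neutrophils, were at 0.053 and 0.802 FPKM and at 0 and 0.401 FPKM in ACSS2NLS, against 3.21 and 24.4 FPKM and 2.87 and 24.1 FPKM in EV. Cd14, a monocyte receptor gene, was at 3.09 and 5.04 FPKM in ACSS2NLS and 5.90 and 29.1 FPKM in EV. Within EV these 3 genes were higher in replicate 2, while Mxd1 was at 15.1 FPKM in replicate 1 and 14.1 FPKM in replicate 2. They are the 3 of the 16 measured myeloid markers whose groups did not overlap, and were named after their values were seen. Of the 16, 12 had a higher mean in ACSS2NLS, against the direction of Mxd1. Csf3r, another neutrophil gene of the list, was at 0.353 and 1.59 FPKM in ACSS2NLS and 0.492 and 2.69 FPKM in EV, with overlapping groups. Of the neutrophil genes of the list that were below the filter, Ly6g was at most 0.166 FPKM and Cxcr2 at most 0.320 FPKM in any library. The part of these cells in the level of Mxd1 was not tested.

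The other MXD genes differed by less. Mxd3, the antagonist linked to S phase in proliferating cells (NM_016662; chr13:55325168-55329730, minus strand), was at 8.46 and 8.30 FPKM in ACSS2NLS and 8.55 and 9.52 FPKM in EV. Its groups did not overlap, but the closest libraries were almost level, and the log2 difference was -0.10 ± 0.13. It shares 105 exon bases with Prelid1, on the opposite strand and far more abundant, at 111.0 and 115.7 FPKM in ACSS2NLS and 124.8 and 126.1 FPKM in EV. The values count sense-strand tags, and the sources used here do not say whether library preparation preserved strand. If it did not, Prelid1 reads on the shared bases could count as Mxd3. The part of those reads in the level of Mxd3, in its rank and in its share of the MXD sum was not tested.

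Mxi1 encodes the antagonist also called MXD2 (NM_001008543; chr19:53330446-53375810, plus strand). It was at 5.10 and 6.19 FPKM in ACSS2NLS and 7.19 and 6.01 FPKM in EV, so the groups overlapped, with a log2 difference of -0.19 ± 0.16. It shares 194 exon bases with Gm10197 on the opposite strand. Mxd4, an antagonist of differentiated and resting cells (NM_010753; chr5:34176580-34187710, minus strand), stood the other way. It was at 5.93 and 5.23 FPKM in ACSS2NLS, both above the EV libraries at 4.53 and 4.70 FPKM, with a log2 difference of 0.23 ± 0.14. Within the family, then, the difference was uneven: Mxd1, Mxd3 and Mxi1 were lower in mean and Mxd4 higher.

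The lower sum of MXD transcripts in ACSS2NLS lay almost wholly in Mxd1. Mxd1, Mxd3, Mxd4 and Mxi1 summed to 26.0 and 27.3 FPKM in ACSS2NLS and 35.3 and 34.3 FPKM in EV. Without Mxd1 the sum was 19.5 and 19.7 FPKM in ACSS2NLS and 20.3 and 20.2 FPKM in EV. Mxd1 made up 25.2% and 27.6% of the sum in ACSS2NLS, below Mxd3 at 32.5% and 30.5%. In EV, Mxd1 made up 42.7% and 41.0% and was the most abundant MXD transcript, with Mxd3 at 24.2% and 27.8%.

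MYC itself did not separate the groups. Myc (NM_001177354; chr15:61985341-61990361, plus strand) was at 65.6 and 55.9 FPKM in ACSS2NLS and 41.7 and 63.2 FPKM in EV. Only EV replicate 1 stood apart, below the other 3 libraries, and the groups overlapped. The mean was 60.7 ± 6.91 FPKM in ACSS2NLS and 52.5 ± 15.2 FPKM in EV (SD, n = 2 each), and the log2 difference was 0.23 ± 0.22. Without EV replicate 1 the log2 difference was -0.060, and without EV replicate 2 it was 0.526. Without ACSS2NLS replicate 1 or 2 it was 0.118 and 0.347. The related genes were near 0: Mycn was at 0 and 0.040 FPKM in ACSS2NLS and 0.017 and 0 FPKM in EV, and Mycl was at most 0.326 FPKM in any library.

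**Figure D2:**
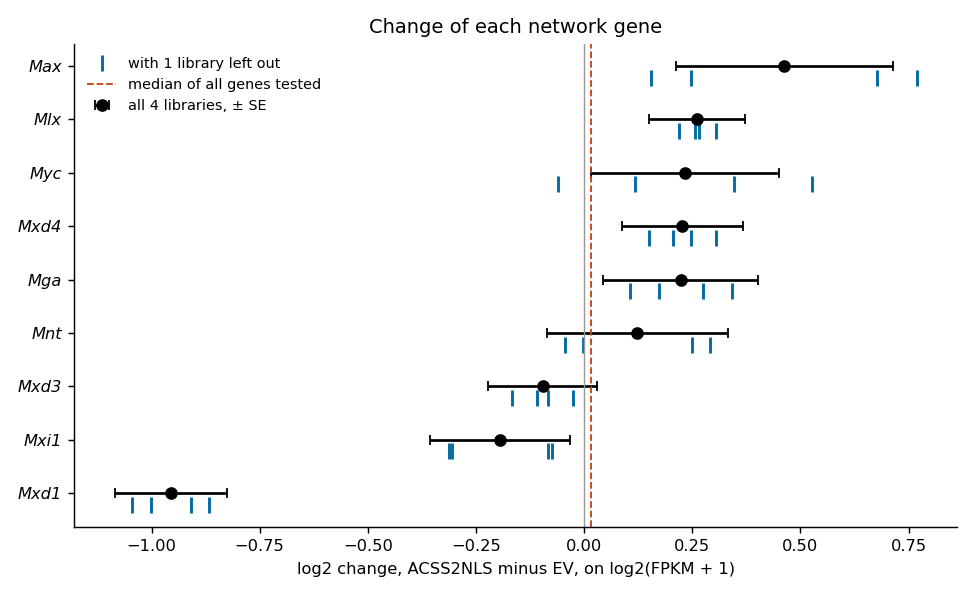
Difference of each network gene between ACSS2NLS and EV on the log2(FPKM + 1) scale, with the value from all 4 libraries as a dot with its SE and the values with 1 library left out as blue ticks. Mxd1 at -0.96 stands away from the other 8 genes, which lie between -0.19 and 0.46, and the ticks of Myc and Mnt fall on both sides of 0.

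The balance of transcripts among the partners of MAX leaned more to Myc in ACSS2NLS, by an amount that depended on the library. Myc held 69.7% and 64.7% of the summed FPKM of the 7 partners in ACSS2NLS and 52.8% and 63.1% in EV. ACSS2NLS replicate 2 and EV replicate 2 were thus nearly level in the share of Myc. The share of Mxd1 was 6.96% and 8.73% in ACSS2NLS and 19.1% and 14.1% in EV, with a clear gap. The ratio of Myc to Mxd1 in FPKM was 10.02 and 7.41 in ACSS2NLS and 2.77 and 4.49 in EV. The ratio of Myc to the 4 MXD genes together was 2.52 and 2.05 in ACSS2NLS and 1.18 and 1.84 in EV. These are ratios of RNA, and the amounts of the proteins were not measured.

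**Figure D3:**
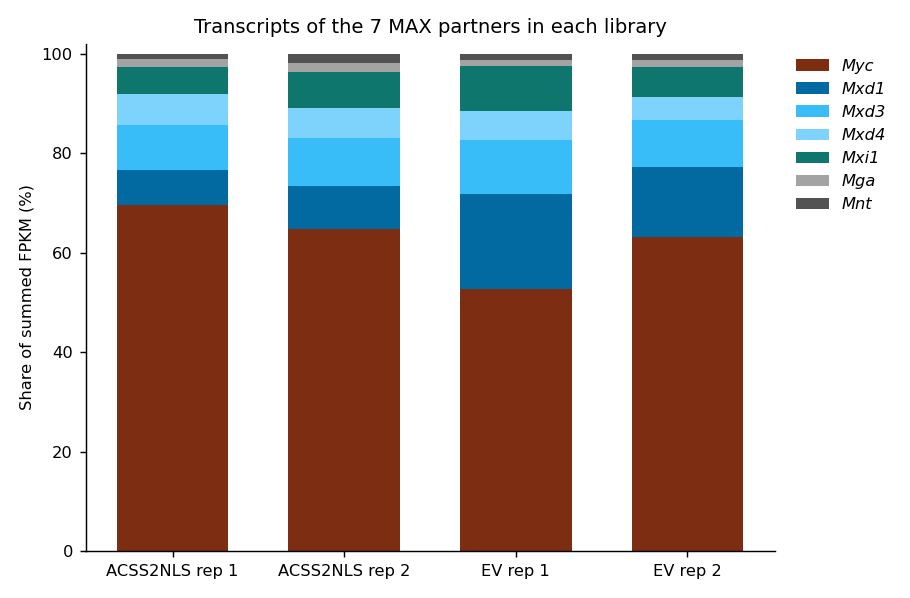
Share of each of the 7 partners of MAX in their summed FPKM, as a stacked bar for each library. The dark blue segment of Mxd1 is 6.96% and 8.73% in the ACSS2NLS libraries and 19.1% and 14.1% in the EV libraries, while the segments of Mxd3, Mxd4, Mxi1, Mga and Mnt are each at most 10.8% in any library.

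Max, the shared partner, varied between libraries of a group about as much as between the groups. Max (NM_001146176; chr12:76937269-76962248, minus strand) was at 16.8 and 26.3 FPKM in ACSS2NLS and 12.8 and 17.6 FPKM in EV. ACSS2NLS replicate 2 was the highest and EV replicate 1 the lowest, and the groups overlapped. Between same-numbered libraries Max was higher in ACSS2NLS each time, but the labels do not say that the numbers pair the libraries. The log2 difference of 0.46 ± 0.25 was 0.155 without ACSS2NLS replicate 2, 0.247 without EV replicate 1, 0.770 without ACSS2NLS replicate 1 and 0.677 without EV replicate 2. From low to high, Max ordered the libraries as EV replicate 1, ACSS2NLS replicate 1, EV replicate 2 and ACSS2NLS replicate 2. The summed melanoma and the summed myeloid markers gave the same order. As a mean of centred log2 values, the myeloid markers were instead highest in EV replicate 2, at 1.02, with ACSS2NLS replicate 2 at 0.90. The part of these cells in the level of Max was not tested.

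Mnt, a widely expressed antagonist of MYC (NM_010813; chr11:74830924-74845725, plus strand), followed that order too. It was at 0.998 and 1.52 FPKM in ACSS2NLS and 0.889 and 1.25 FPKM in EV, with overlapping groups. Its log2 difference of 0.12 ± 0.21 turned to -0.045 without ACSS2NLS replicate 2 and to -0.003 without EV replicate 1. It was 0.291 and 0.249 without ACSS2NLS replicate 1 and EV replicate 2. Mga, which encodes a very large MAX partner that also carries a T-box and belongs to the repressive complex PRC1.6 (NM_001164274; chr2:119897228-119969581, plus strand), was at 1.49 and 1.68 FPKM in ACSS2NLS and 1.04 and 1.40 FPKM in EV. Both ACSS2NLS libraries were above both EV libraries, and the log2 difference was 0.22 ± 0.18. It was 0.105 without EV replicate 1 and 0.341 without EV replicate 2, and Mga was lowest in EV replicate 1 and highest in ACSS2NLS replicate 2, as the summed melanoma and myeloid markers were.

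**Figure D4:**
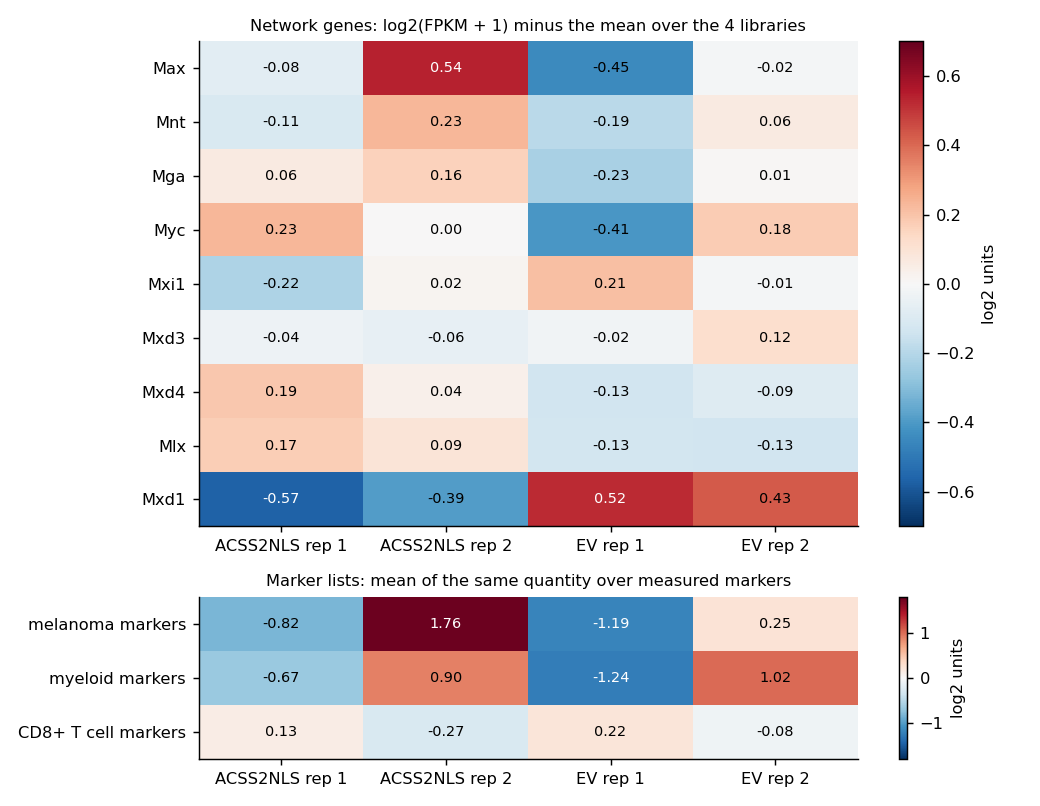
Level of each network gene in each library relative to its mean over the 4 libraries (top), and the mean of that quantity over the measured melanoma, myeloid and CD8+ T cell markers (bottom), in log2 units. Max, Mnt and the melanoma markers are lowest in EV replicate 1 and highest in ACSS2NLS replicate 2, whereas Mxd1 is low in both ACSS2NLS libraries and high in both EV libraries.

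In the MLX branch, Mlx (NM_001159384; chr11:101087290-101092207, plus strand) was at 18.8 and 17.7 FPKM in ACSS2NLS and 15.1 and 15.0 FPKM in EV. The EV libraries were almost equal and both ACSS2NLS libraries lay above them, with a log2 difference of 0.26 ± 0.11. Mlx shares 385 exon bases with Psmc3ip on the opposite strand, which was at 8.48 and 6.24 FPKM in ACSS2NLS and 7.13 and 5.91 FPKM in EV. The part of those reads was not tested. Mlxip, which encodes the MLX partner MondoA, was at 9.92 and 11.0 FPKM in ACSS2NLS and 7.498 and 12.3 FPKM in EV, with overlapping groups. Mlxipl, which encodes ChREBP, was at most 0.024 FPKM in any library.

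The 2 listed targets of the MLX branch, both of the arrestin family that restrains glucose uptake, were lower in mean, unlike Mlx. Txnip was at 21.7 and 28.1 FPKM in ACSS2NLS and 29.6 and 36.1 FPKM in EV, without overlap but with a narrow gap, and a log2 difference of -0.39 ± 0.17. Arrdc4 was at 1.56 and 2.01 FPKM in ACSS2NLS and 1.78 and 2.25 FPKM in EV, with overlapping groups.

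Counted together, 6 of the 9 network genes had a higher and 3 a lower mean in ACSS2NLS, and 53.2% of all genes tested were higher. The groups did not overlap for 3 genes higher (Mxd4, Mlx and Mga) and 2 lower (Mxd1 and Mxd3). Of all genes tested, 37.4% had groups that did not overlap, 19.3% higher and 18.1% lower. With limma-trend fitted on all 9810 genes, 0 of the 9 passed an adjusted p of 0.05. Over all genes 2 rose, or 0.0204%, namely Acss2 and Acss2os, and 0 fell, or 0.0%. Acss2os is named for the opposite strand of Acss2, and the part of Acss2 reads in its level was not tested. The unadjusted p was under 0.05 for 304 genes that were higher and for 282 that were lower. Nothing is read from the members' counts, since the same contrast was known when the genes were chosen. The smallest two-sided p open to an exact permutation of 2 against 2 libraries is 0.333. Of the 4 genes with CACGTG in the promoter, Max, Mxd4, Mnt and Mlx, all had a higher mean, Mnt only with all libraries in place or without ACSS2NLS replicate 1 or EV replicate 2. The groups overlapped for Max and Mnt. Of the 4 with a promoter entry and no CACGTG, Mga was higher and Mxd1, Mxd3 and Mxi1 were lower. For Mxi1 the start of the measured transcript was not among the windows searched. Over all measured genes with an entry, 54.5% of those with CACGTG and 52.8% of those without it were higher in mean. The split of the members is not read as a result, since the contrast was known and the motif was picked after the sequences were seen.

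Genes that MYC is known to activate in ribosome production were mostly somewhat higher. All 28 listed genes passed the filter, the mean being higher in ACSS2NLS for 23 and lower for 5, and 10 were higher and 2 lower without overlap. Of all genes tested, 53.2% had a higher mean, and 19.3% were higher and 18.1% lower without overlap. These shares stand beside the counts of this list and of those below. The median log2 difference was 0.134, against 0.015 over all genes tested, and 0 genes passed limma-trend in either direction. It was 0.044 without EV replicate 1 and 0.261 without EV replicate 2, and without ACSS2NLS replicate 1 or 2 it was 0.171 and 0.097. EV replicate 1 was the library lowest in Myc and also in the summed melanoma and myeloid markers. The part of any of these in the shift of the median was not tested. The lists, like the network genes, were chosen with earlier results of the same contrast in these libraries known, so their counts and medians are a description.

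Gnl3, which encodes the nucleolar GTPase nucleostemin, had the largest difference of these. It was at 22.1 and 23.2 FPKM in ACSS2NLS and 15.0 and 16.9 FPKM in EV, a log2 difference of 0.48 ± 0.12 with no overlap. Npm1, the nucleolar chaperone nucleophosmin, was at 77.9 and 73.4 FPKM in ACSS2NLS and 50.6 and 58.6 FPKM in EV (0.47 ± 0.13). Rrs1, an assembly factor of the large ribosomal subunit, was at 19.0 and 21.0 FPKM in ACSS2NLS and 15.2 and 17.96 FPKM in EV (0.26 ± 0.13).

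MYC-activated genes of metabolism and the cell cycle had no common direction. Of the 28 listed, 27 were measured, 15 with a higher and 12 with a lower mean, and 9 were higher and 7 lower without overlap. Their median was 0.039, and 0 passed limma-trend in either direction. Hspe1, the mitochondrial co-chaperonin, was at 44.3 and 33.6 FPKM in ACSS2NLS and 21.96 and 23.8 FPKM in EV (log2 difference 0.73 ± 0.16). Slc3a2, the heavy chain of the large amino acid transporter, was at 54.9 and 49.5 FPKM in ACSS2NLS and 81.9 and 60.4 FPKM in EV (-0.42 ± 0.17). Odc1, the rate-limiting enzyme of polyamine synthesis and a classical MYC target, was at 19.7 and 21.995 FPKM in ACSS2NLS and 28.6 and 25.8 FPKM in EV (-0.37 ± 0.12). Each of the 3 had groups that did not overlap.

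Genes that MYC represses were lower in mean for 4 of the 5 measured of 7 listed, with a median of -0.595, and 0 passed limma-trend in either direction. Cdkn1a, the cell cycle inhibitor p21, was at 10.4 and 13.7 FPKM in ACSS2NLS and 30.2 and 18.5 FPKM in EV, a log2 difference of -0.93 ± 0.26. Gadd45a, a growth arrest gene induced by DNA damage, was at 2.56 and 1.68 FPKM in ACSS2NLS and 5.50 and 3.12 FPKM in EV (-0.74 ± 0.28). Both had EV replicate 1 as the highest library and groups that did not overlap. The median of the 5 was between -0.540 and -0.329 with each library left out in turn, and -0.034 over all 7 when the 2 genes below 1 FPKM were kept.

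**Figure D5:**
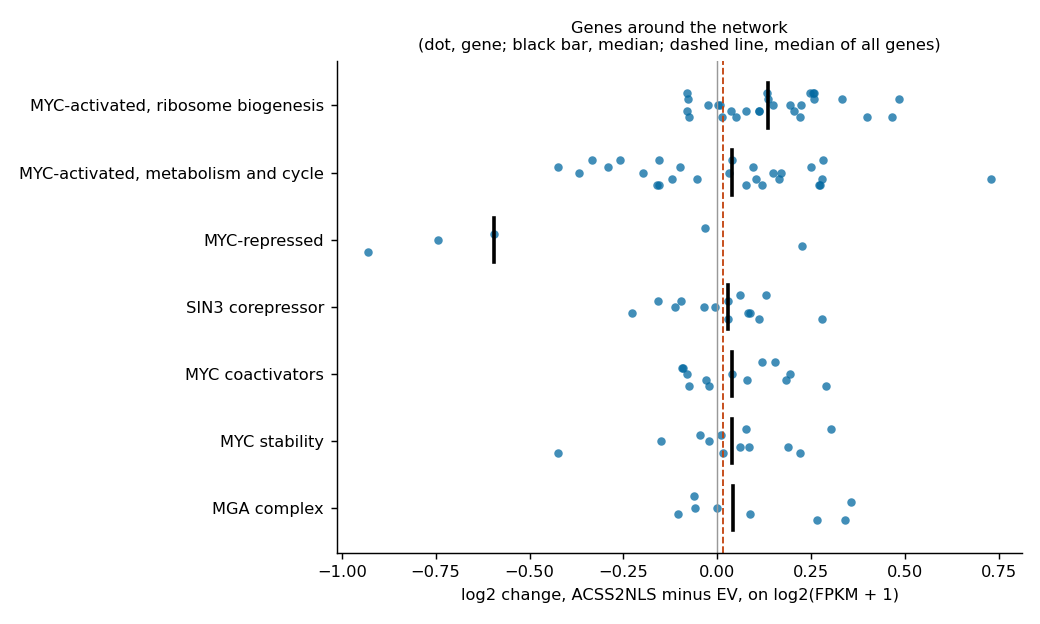
Difference of each measured gene of 7 lists around the network, ACSS2NLS minus EV on the log2(FPKM + 1) scale, with the median of each list as a black bar and that of all genes tested, 0.015, as a dashed line. The ribosome biogenesis genes centre on 0.134 and the 5 MYC-repressed genes on -0.595, while the medians of the other 5 lists lie between 0.028 and 0.043.

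The machinery that the network proteins recruit had medians close to that of all genes, and the sign of 3 of them turned with the library left out. The SIN3 corepressor list, of the complex that MXD proteins and MNT bring to DNA, had 8 of 14 genes higher, 3 higher and 2 lower without overlap, and a median of 0.028 (-0.048 to 0.128 with a library left out). Its named genes were Arid4a at 7.40 and 5.98 FPKM in ACSS2NLS and 5.59 and 5.05 FPKM in EV, Suds3 with a log2 difference of -0.16 ± 0.12 and the deacetylase gene Hdac2 with 0.13 ± 0.11. Sin3b, a scaffold gene of the complex named here after its values were seen, was at 49.4 and 49.2 FPKM in ACSS2NLS and 55.3 and 51.6 FPKM in EV, and Sin3a, the other scaffold gene, at 4.70 and 6.82 FPKM in ACSS2NLS and 5.59 and 5.0 FPKM in EV.

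MYC coactivators had 7 of 13 genes higher and a median of 0.039 (-0.082 to 0.173 with a library left out), with 2 higher and 2 lower without overlap. Ruvbl2 and Ruvbl1, paired ATPases of the TIP60 and INO80 complexes, had log2 differences of 0.29 ± 0.12 and 0.15 ± 0.12, and Cdk9, the kinase of P-TEFb, had -0.08 ± 0.11. Genes that set the stability of the MYC protein had 8 of 12 higher and a median of 0.039 (-0.053 to 0.090 with a library left out). Usp28, a deubiquitinase of MYC, was at 1.82 and 1.91 FPKM in ACSS2NLS and 1.54 and 1.39 FPKM in EV (0.22 ± 0.16), and the kinase gene Gsk3a had -0.15 ± 0.13. These were the 2 genes of that list whose groups did not overlap.

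Partners of MGA in PRC1.6 had 4 of the 8 measured genes higher and a median of 0.043, and the 3 without overlap were all higher. Over all genes tested, 37.4% had groups that did not overlap, so 3 of 8 is near that share. Pcgf6, the subunit that defines this complex, was at 6.68 and 6.18 FPKM in ACSS2NLS and 4.75 and 4.85 FPKM in EV (log2 difference 0.36 ± 0.13). Rnf2, a ubiquitin ligase subunit, had 0.34 ± 0.16, and Cbx3, a heterochromatin protein gene, had 0.27 ± 0.15. Over the 4 lists of recruited machinery, stability factors and MGA partners, 0 genes passed limma-trend in either direction.

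The genes nearest to Mxd1 in pattern were those with the smallest Euclidean distance between centred log2(FPKM + 1) values over the 4 libraries, among the 6071 genes that averaged 5 FPKM or more. They were Cish, an inhibitor of cytokine signalling (distance 0.120), Il12rb2, a receptor chain for IL-12 (0.242), Adgrg5 (0.251), Dkkl1 (0.272) and Serpina3f (0.292). Cish was at 6.84 and 8.81 FPKM in ACSS2NLS and 16.4 and 16.2 FPKM in EV, close to the levels of Mxd1 itself. Nearest to Myc were Rpl12, a ribosomal protein gene (0.072), Adck5 (0.086), Ms4a4c (0.095), Fastkd3 (0.130) and the potassium channel gene Kcnn4 (0.132). Rpl12 was at 10.1 and 8.39 FPKM in ACSS2NLS and 5.92 and 8.999 FPKM in EV, low in EV replicate 1 as Myc was. A pattern over 4 libraries is shared by many genes, and these distances are a description.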

How the data were processed

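Per the labels' protocols, a Qiagen micro column kit yielded the RNA of the CD8+ cells and a SMART-Seq v4 kit for low input the 4 libraries. The submitters' processing notes name the aligner STAR (2.5.3a), the build mm10 and HOMER. The deposited values are FPKM, which per the file headers count sense-strand tags over RefSeq exons, with a single transcript kept per gene. Columns named Acss2WT and Acss2OE were read as EV and ACSS2NLS. The header names 8 tag directories, and the 4 library columns of the table were used.

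Total tags were taken from the step of low FPKM values times gene length (100% whole within 0.1, genes of 500 to 2000 bases, up to 50 tags). Chi-square per degree of freedom between replicates was 60.7 for ACSS2NLS and 40.1 for EV, so replicates differed by more than sampling noise. Counting errors cover counting only.

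On log2(FPKM + 1), limma 3.58.1 (R 4.3.3, limma-trend, two-sided, Benjamini-Hochberg over 9810 genes averaging 1 FPKM or more, threshold 0.05) compared 2 with 2 libraries, and was tested on simulated data. This scale understates differences of low genes. The SE of each log2 difference is the moderated one of this fit, which borrows variance from all genes tested. It is thus not the spread of the gene's own replicates alone. Members, lists and markers were chosen with earlier results of these data known. Named were all members, up to 3 genes per list with the largest difference and no overlap, all genes of lists of up to 4, and the 5 genes nearest in pattern to Myc and Mxd1. Exon overlaps came from GENCODE M21. Alternatives were other pseudocounts, filters, quantile normalization, a replicate block and each library left out.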

Additional observations from a re-analysis of the deposited data

How the results depend on the processing

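Mxd1 was lower in ACSS2NLS under every alternative run, with log2 differences of -1.041 to -0.955 across pseudocounts, filters and quantile normalization. Both ACSS2NLS libraries lay below both EV libraries, so no pseudocount or left-out library could turn this sign. The filters and the replicate block leave the estimate as it was. The constant sign is therefore not read as support. With all genes above 0 kept, 1 gene passed upward instead of 2. Leaving out a library in turn gave 2 genes passing upward each time and 0 to 9 downward, 9 without EV replicate 1 and 2 without EV replicate 2, with 0 network genes among them. Those fits leave a lone library in a group, which is assumed to vary like the other group. Under these, 4 to 6 network genes had a higher mean, and Myc and Mnt were the ones that changed sign.

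The groups share replicate numbers, but nothing in the labels says that a number marks a shared mouse or day. Same-numbered libraries deviated together (correlation 0.58 across genes), which with 2 pairs is a hint only. With the replicate block, 229 genes passed upward and 172 downward, and 2 network genes, Mxd1 and Max, were among them; nothing is read from that, since the contrast chose the genes. The block leaves 1 residual degree of freedom. With a mean of at least 5 FPKM, Mnt and Mga were not measured. The cause of these shifts was not tested. With 2 libraries a group, small differences such as that of Mxd3 are not detectable here. Larger ones can be missed too. Without the block Mxd1, at -0.955, did not pass, and only Acss2 and Acss2os did.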

Other observations

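Across all 7496 genes with a promoter entry and a mean of at least 1 FPKM, those with and without CACGTG had close medians, and the difference between them was not tested. The 920 genes that hold it had a median log2 difference, ACSS2NLS minus EV, of 0.021, with 54.5% higher in mean, and the 6576 genes without it had a median of 0.012, with 52.8% higher. CACGTG was present in 6 of the 22 ribosome biogenesis genes with an entry, or 27.3%, in 7 of 21 metabolism and cell cycle genes, or 33.3%, and in 0 of 6 MYC-repressed genes.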
